A study of Mus musculus with 2 samples.

Results

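Integrins, laminins and the glycoproteins that link laminin to the rest of the basement membrane were compared between 661W cells grown without and with choline. The genes were taken by a rule on their names, with no measured value in it: all genes on the array whose name starts with Itga, with Itgb and a number or with Lama, Lamb or Lamc and a number, plus Nid1, Nid2, Hspg2 and Agrn. This gave 45 of the 29608 gene names on the array, read by 67 probes with 1 spot each. They are 18 integrin alpha subunit genes, 8 integrin beta subunit genes, 11 laminin chain genes, 4 basement membrane glycoprotein genes and 4 other genes that carry an integrin beta name. All 45 were found under the same symbol in a RefSeq table of the mouse assembly GRCm38.p6.

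661W is a mouse line of photoreceptor cells. Both groups were cultured for 3 days in DMEM/F12, a standard medium, 1 group without choline and the other with choline at 8.98 g/L according to the labels, a figure that was not checked here. The growth medium described for the line holds 10% fetal bovine serum, and the labels name no allele or other agent. Each group is 1 Agilent single-colour array of Cy3-labelled RNA. The design text speaks of RNA pooled from 4 dishes without saying how they fall into the groups, so there are no replicates, no p-value is given, and no difference has a replicate check.

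An integrin is a receptor made of an alpha and a beta subunit that span the cell membrane, bind matrix outside the cell and couple to actin inside it. Laminins are cross-shaped trimers of an alpha, a beta and a gamma chain that form the first sheet of a basement membrane, the thin matrix layer under epithelia and around vessels, muscle and glia. Nidogens and the heparan sulfate proteoglycans perlecan and agrin bind to that sheet and tie it to the type IV collagen network. In the retina laminins lie in the inner limiting membrane, in Bruch's membrane and in the matrix around photoreceptors.

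A gene's level is given here as log2 of its signal over the array's 75th percentile, so 0 is the 75th percentile, and levels of different genes are not comparable because each probe has its own brightness. A difference is the level on the choline-deficient minus that on the choline-sufficient array. The error after ± is the scanner software's estimate, which covers the reading of the arrays and not the variation between cultures. A gene counts as measured when at least 1 of its probes was well above background on both arrays, and it is called higher or lower at 1.5-fold or more. Between 68.5% and 70.7% of non-control spots were well above background, and 0 were saturated. The median of all measured genes moved by -0.119 when the arrays were scaled to their medians and by 0.271 when scaled to spike-in probes, and these shifts apply alike to every gene named.

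Promoters of members with large differences are shown first, to let the bases before their start sites be read beside the values. The RefSeq promoter table (GRCm38.p6) holds 29 of the 45 members, in 33 entries of 300 bases. Among these 29, the 4 with the largest differences toward the choline-deficient array are printed, each as the 250 bases before a start site, 5′ to 3′ on the gene's strand. A set of 5 short motifs were searched on both strands: the AP-1 site TGANTCA, the hypoxia response core ACGTG or GCGTG, the GC box GGGCGG, the TATA box TATAAA and the CArG box of serum response factor. Matches are in capitals.
Nid1, chr13:13437352-13437601, plus strand: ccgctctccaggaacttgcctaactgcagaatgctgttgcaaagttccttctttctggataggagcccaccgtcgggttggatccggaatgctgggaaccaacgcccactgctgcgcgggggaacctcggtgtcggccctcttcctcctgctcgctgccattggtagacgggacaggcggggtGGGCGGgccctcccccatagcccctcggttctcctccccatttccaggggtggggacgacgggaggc
Itga2b, chr11:102469884-102470133, minus strand: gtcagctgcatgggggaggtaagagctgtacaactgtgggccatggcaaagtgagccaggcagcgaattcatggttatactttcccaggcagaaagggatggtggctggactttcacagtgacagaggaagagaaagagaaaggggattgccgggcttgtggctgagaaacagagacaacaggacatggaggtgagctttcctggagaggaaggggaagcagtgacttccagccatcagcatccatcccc
Itga3, first entry, chr11:95076715-95076964, minus strand: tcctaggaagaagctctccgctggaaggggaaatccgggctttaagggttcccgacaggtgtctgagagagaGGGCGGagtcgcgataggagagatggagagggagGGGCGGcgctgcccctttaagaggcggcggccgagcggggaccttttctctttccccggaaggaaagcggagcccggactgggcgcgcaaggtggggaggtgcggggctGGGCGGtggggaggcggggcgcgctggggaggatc
Itga3, other entry, chr11:95069199-95069448, minus strand: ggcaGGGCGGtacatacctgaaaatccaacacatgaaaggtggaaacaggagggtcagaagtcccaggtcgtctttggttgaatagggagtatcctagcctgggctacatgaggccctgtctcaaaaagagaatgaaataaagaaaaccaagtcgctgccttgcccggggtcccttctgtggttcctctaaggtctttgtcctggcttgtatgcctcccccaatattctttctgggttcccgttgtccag
Lama2, chr10:27616943-27617192, minus strand: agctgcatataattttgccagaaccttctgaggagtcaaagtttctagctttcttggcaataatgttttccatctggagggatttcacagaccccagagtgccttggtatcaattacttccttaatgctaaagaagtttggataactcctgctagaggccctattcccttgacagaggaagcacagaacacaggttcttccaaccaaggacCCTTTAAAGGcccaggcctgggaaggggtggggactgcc

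The printed promoters share no motif of the 5. In the printed bases Nid1 holds 1 GC box, the first Itga3 entry holds 3 and the other 1, Lama2 holds 1 CArG box, and Itga2b holds 0 of the 5. Over the whole 300-base windows, 14 of the 29 members had a GC box in at least 1 entry, against 38.2% of all genes in the table counted the same way (35.7% of its 32851 promoters). The hypoxia response core was in 11 of the 29 (46.7% of all genes, 43.8% of promoters). The AP-1 site was in 3 (8.97% and 7.81%), the CArG box in 2 (1.81% and 1.63%) and the TATA box in 0 (15.7% and 13.6%). Member promoters had a median GC content of 59.0%, against 52.7% for all promoters. A match describes letters only and says nothing of a factor's binding.

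On the choline-deficient array these genes were more often higher than genes at large. Of the 45 members 35 were measured, and 15 of these (42.9%) were at least 1.5-fold higher without choline, where 14.8% of all 19818 measured genes were. Only 2 of the 35 (5.71%) were at least 1.5-fold lower, against 14.1% of all genes. At 2-fold the counts were 10 higher and 1 lower, against 7.67% and 3.88% of all measured genes. The median difference of the measured members was 0.56 and that of all measured genes -0.10. The gap between these medians was 0.65 and does not move with a scaling by constants. It was 0.49 after normexp background correction and 0.58 after quantile normalization. Higher genes made up 51.1% of all genes called under the main scaling, 37.1% with median scaling and 80.3% with spike-in scaling, while for the members this share was 88.2%, 82.4% and 95.7%.

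**Figure D1:**
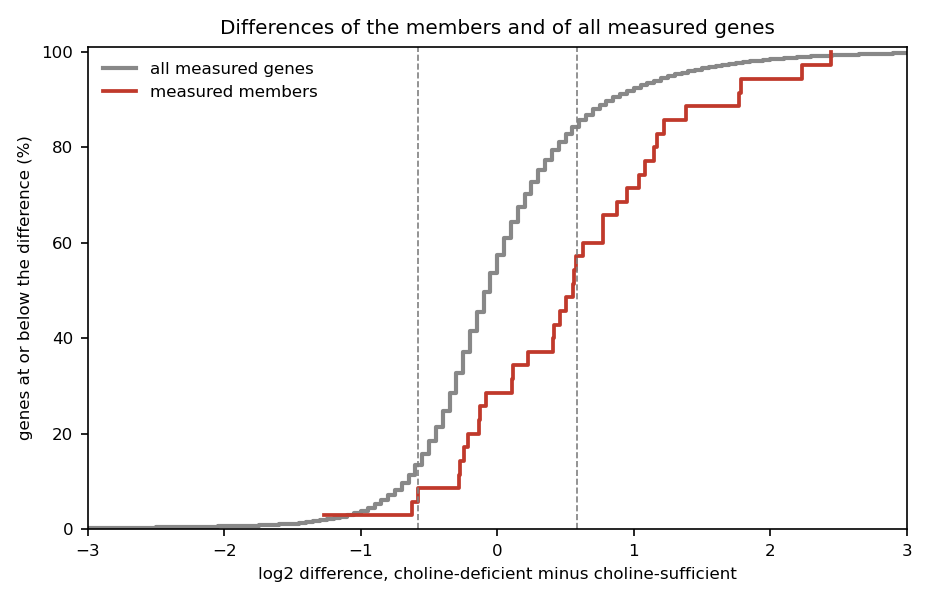
Cumulative share of genes (%) against the log2 difference between the choline-deficient and the choline-sufficient array, for the 35 measured members (red) and all 19818 measured genes (grey). Dashed lines mark 1.5-fold; the members' curve lies to the right of the grey one over most of its length, with medians of 0.56 and -0.10.

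Values of other cell types' markers stand beside this result. Fibroblast markers were called higher on the choline-deficient array in 8 of 9 measured genes of 10. Of all measured genes 14.8% were called higher and 14.1% lower. The median difference of these markers was 2.47, and their summed signal, in units of the array's 75th percentile, was 84.6 against 10.4. Such sums follow the brightest probes and are no measure of a cell type. Here the largest part came from Col1a2, at 5.96 without and 2.87 with choline. The type I collagen gene Col1a1 had levels of 1.49 and -2.26, while Lum, of the same list, was not well above background in either group. Cone and rod markers were measured for 7 of 16 genes, of which 3 were called higher and 0 lower, with a summed signal of 0.428 without and 0.290 with choline. Of these 7, 5 had positive differences, such as the cone transducin gene Gnat2 (0.56), and 2 negative ones, the cone arrestin gene Arr3 (-0.41) and the rod transducin gene Gnat1 (-0.44). A further 6 of the 16, among them Opn1sw, Crx, Nrl, Cngb3 and Pde6b, were not well above background in either group, and 3 others were so in 1 group only. Col1a1, Col1a2, Col3a1, Fbn1 and Postn of the fibroblast list are also in the list of integrin ligands used further on. The part of any cell type in the members' differences was not tested. In RNA of a whole culture, fewer cells of a kind and less RNA per cell cannot be told apart.

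The nidogens stood out among the members. Nid1 encodes nidogen 1, the rod-shaped protein that bridges laminin and type IV collagen. Its probe on chromosome 13 (mm9, 13604435 to 13604494) read 868 on the choline-sufficient and 5523 on the choline-deficient array, in scanner units before scaling. The gene's mean level over its 3 probes was -4.99 with and -2.76 without choline, a difference of 2.23 ± 0.24 (4.70-fold). All 3 probes, which lie in different places of the gene, were higher without choline, by 1.74, 2.34 and 2.61, and after normexp background correction, which adds an offset of 50 to every signal, the gene's difference was 1.06. Nid2, its close relative with the same partners, had levels of -0.29 with and 1.48 without choline, 3.42-fold higher (1.77 ± 0.20). Hspg2, which encodes perlecan, was 1.55-fold higher, with levels of -0.87 and -0.24 (0.63 ± 0.20) and probes at 0.58 and 0.68. Hspg2 lay just past the threshold, and it fell inside it with median scaling (0.51) and after normexp (0.56). Agrn, the gene of agrin, was within 1.5-fold, at -1.14 with and -0.91 without choline (0.22 ± 0.21). Over these 4 glycoprotein genes the median difference was 1.20.

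**Figure D2:**
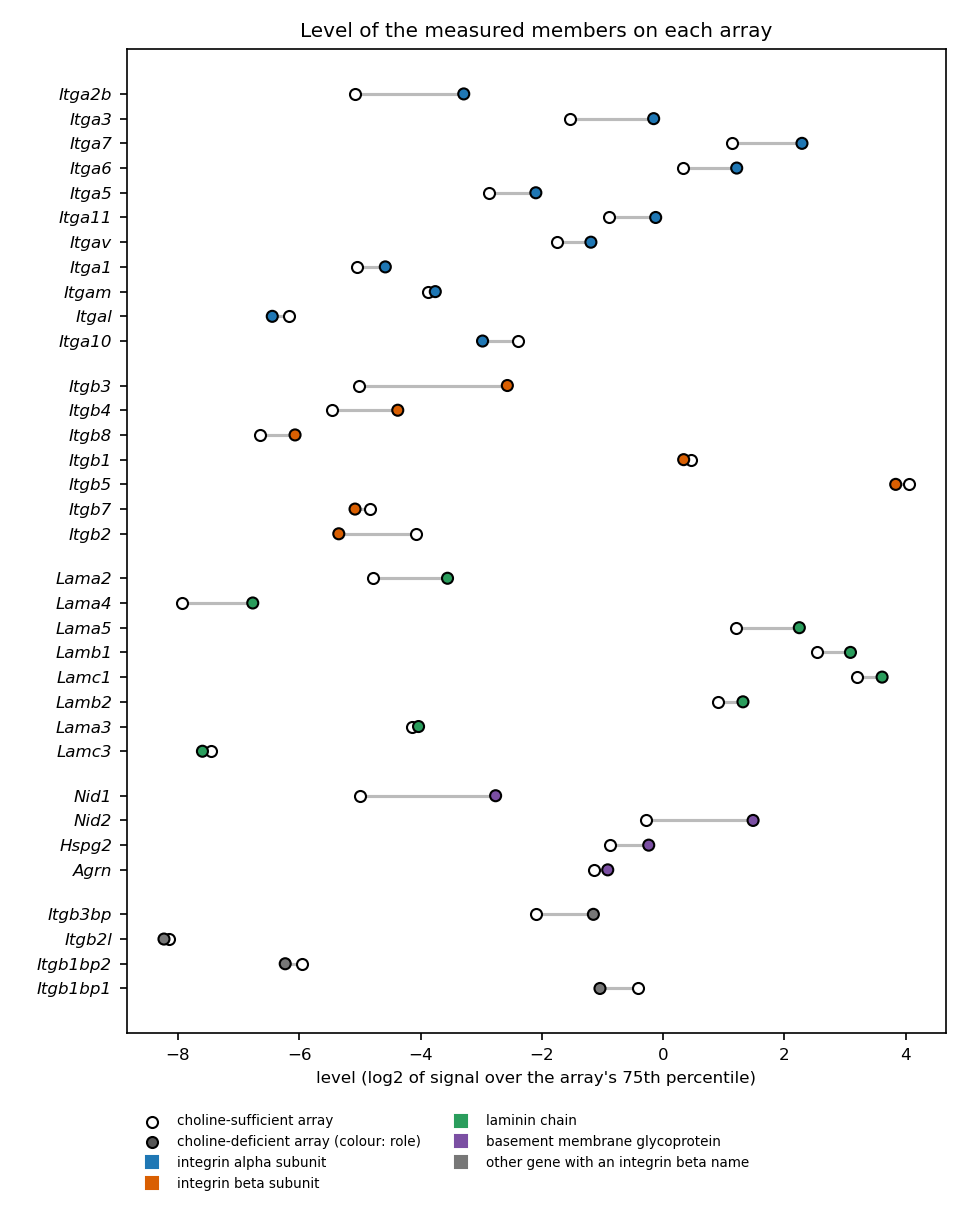
Level of 34 of the 35 measured members on the choline-sufficient (open) and the choline-deficient array (filled, coloured by role), as log2 of signal over the array's 75th percentile. The grey bar is the difference; the longest bars belong to Itgb3, Nid1, Itga2b and Nid2, and positions of different genes are not comparable.

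Among laminin chains measured on both arrays, those called higher were all alpha chains. The alpha chain sets where a laminin trimer is found and which receptors it binds. Lama5, the alpha chain of most adult basement membranes, was 2.06-fold higher, with levels of 1.21 with and 2.25 without choline (1.04 ± 0.20). Lama2, the chain of muscle and Schwann cell basement membranes, was at -4.78 with and -3.56 without choline. It was 2.34-fold higher (1.22 ± 0.21), with 2 probes at 1.19 and 1.26, and stood at 0.59 after normexp. Lama4, the short chain of vessel laminins, was 2.25-fold higher (1.17 ± 0.35), at -7.94 with and -6.77 without choline. Its signal was dim, 5.21 scanner units with and 14.8 without choline, and its difference was -0.11 after normexp background correction, the 1 case in which a called member changed sign.

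The remaining alpha chains gave no such difference or could not be placed. Lama3, of the anchoring laminin of epithelia, differed by 0.11 ± 0.21 in its measured probe. A second Lama3 probe was above background only without choline, at least 3.52-fold higher, so the gene's probes do not give 1 answer. Such bounds set the bright array's level against the higher of the dim probe's own level and the lowest level of any probe above background on that array. Lama1, of the earliest embryonic basement membranes, was above background only without choline, at signals of 4.80 without and 4.33 with it, and is given no fold.

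All beta and gamma chains measured on both arrays were within 1.5-fold. Lamb1 and Lamc1, which encode the beta and gamma chains of the most common trimers, were at 0.56 ± 0.20 and 0.42 ± 0.20. Their levels were 2.53 with and 3.09 without choline for Lamb1, and 3.20 and 3.61 for Lamc1. Lamb2, whose chain replaces that of Lamb1 at synapses and in glomeruli, was at 0.41 ± 0.20, and Lamc3, a chain found in retina and brain, at -0.14 ± 0.33. Lamb3, a beta chain of the anchoring laminin of epithelia, was above background only without choline, at 11.5 against 4.00 scanner units, and at least 2.15-fold higher. Of the 4 measured alpha chain genes 3 were thus called higher, with a median of 1.11, against 0 of the 5 measured beta and gamma chain genes, with a median of 0.42. Of all measured genes 14.8% were called higher, so 0 of 5 cannot be told from that share. The 0 leaves out Lamb3, which has only a bound, and the 3 includes Lama4, whose sign changed after normexp. This count of beta and gamma genes turns on values near the threshold: Lamb1 and Lamc1 passed 1.5-fold after cyclic loess, quantile normalization and spike-in scaling, and Lamb2 with spike-in scaling. The difference between the chain types itself was not tested.

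**Figure D3:**
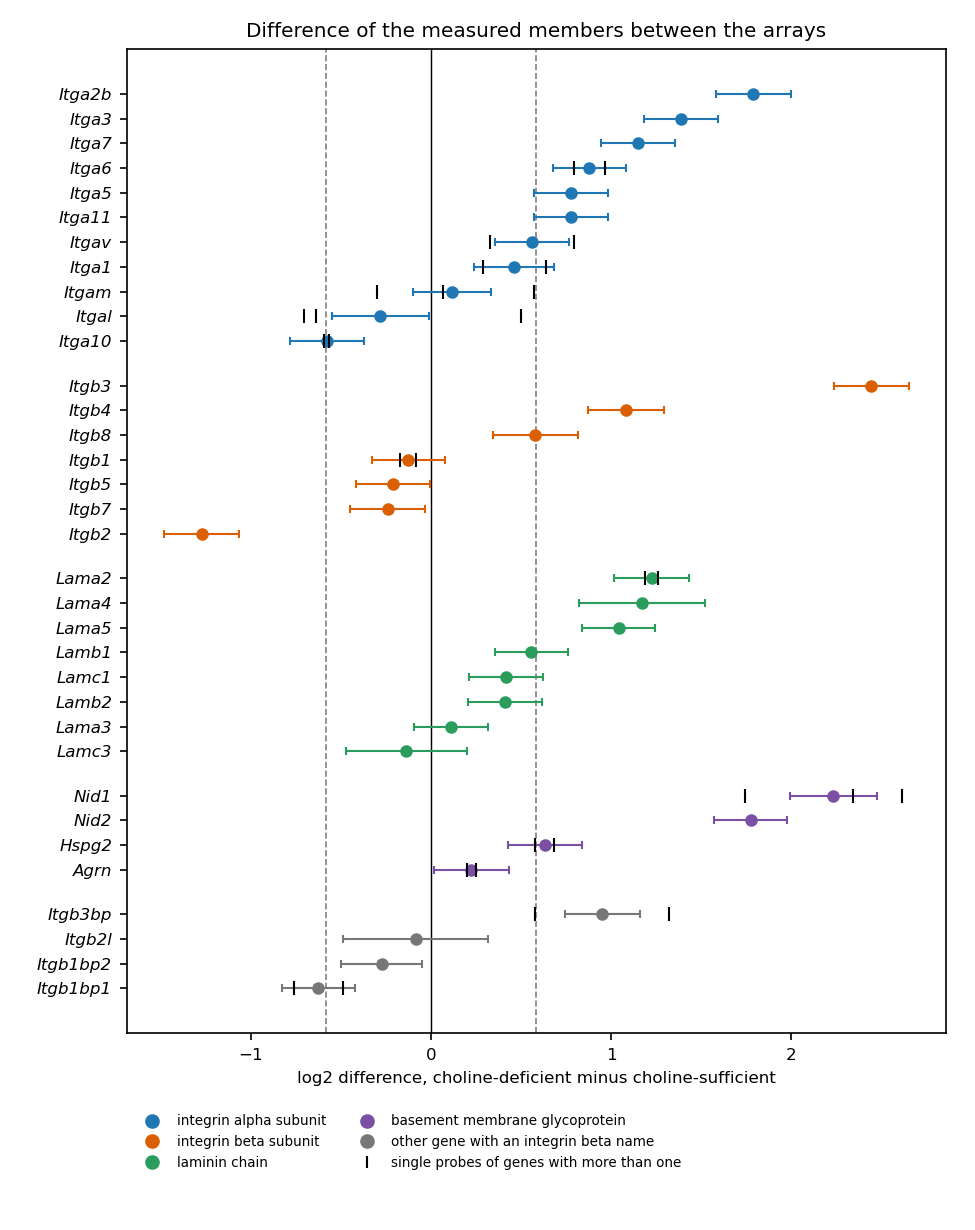
Log2 difference (choline-deficient minus choline-sufficient) of 34 of the 35 measured members by role, with the software's error as bars. Black ticks are single probes, shown for genes with several, and dashed lines mark 1.5-fold. The nidogens, Itgb3 and Itga2b lie farthest to the right and Itgb2 farthest to the left.

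The integrin alpha subunits of the main laminin receptors, Itga3, Itga6 and Itga7, were all higher. Itga3, Itga6 and Itga7 each pair with the beta subunit of Itgb1 to form the main laminin receptors, and Itga6 also pairs with Itgb4 in hemidesmosomes, the rivets of epithelial cells. Itga3 (chromosome 11, mm9, 94906334 to 94906393) had levels of -1.54 with and -0.16 without choline, 2.61-fold higher (1.39 ± 0.20). Itga7 was at 1.14 with and 2.29 without choline, 2.22-fold higher (1.15 ± 0.20). Itga6 was 1.84-fold higher (0.88 ± 0.20), at 0.33 and 1.21, and its 2 probes gave 0.79 and 0.97. These 3 calls held under all 9 alternatives that could be computed for them. The cut-off of 1.5-fold is exceeded by each of the 3 by more than its error.

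Alpha subunits that recognise the RGD motif of fibronectin, vitronectin and fibrinogen were higher or near the threshold. Itga2b, the platelet fibrinogen receptor subunit, had the largest difference of any alpha gene. Its probe read 37.9 with and 165 without choline, for levels of -5.08 and -3.29 and a 3.46-fold higher value without choline (1.79 ± 0.21, and 0.89 after normexp). Itga5, the classical fibronectin receptor subunit, was at -2.88 with and -2.10 without choline, 1.71-fold higher (0.78 ± 0.20). Itgav, whose product joins several beta subunits and also activates latent TGF-beta, was just inside 1.5-fold (0.56 ± 0.20), with probes at 0.33 and 0.79. Itga8 was well above background on neither array.

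Collagen-binding alpha subunits did not share a direction. Itga11, the fibrillar collagen receptor of mesenchymal cells, was 1.71-fold higher, at -0.90 with and -0.12 without choline (0.78 ± 0.20). Itga1, which prefers type IV collagen, was at 0.46 ± 0.22 and so within 1.5-fold. Itga10, the receptor subunit best known from cartilage, was at -2.40 with and -2.98 without choline, which is 1.49-fold lower (-0.58 ± 0.20). Its 2 probes share 54 of 60 bases, so their close values, -0.56 and -0.59, are not separate evidence. With median scaling (-0.70) and quantile normalization (-0.67) Itga10 passed the threshold for lower. Itga2 and the fibronectin and VCAM-1 receptor gene Itga4 were not above background in either group, and Itga9 only without choline, at signals of 4.32 without and 2.18 with it, too dim for a fold.

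The beta subunits did not share 1 direction. Itgb3, which joins the products of Itgav and Itga2b, had the largest difference of all 35 measured members. Its probe on chromosome 11 (mm9, 104531672 to 104531731) read 39.7 with and 271 without choline, levels of -5.01 and -2.57, which is 5.44-fold higher (2.44 ± 0.21, and 1.46 after normexp). A second Itgb3 probe, elsewhere in the gene, was above background only without choline and at least 4.42-fold higher. Both genes of the platelet fibrinogen receptor, Itga2b and Itgb3, were thus higher on the choline-deficient array, and their probes lie on the same chromosome. Itgb4, the laminin receptor subunit of hemidesmosomes, was 2.11-fold higher, at -5.46 and -4.38 (1.08 ± 0.21), but 0.29 after normexp. Itgb8, a partner of Itgav in TGF-beta activation, was at 0.58 ± 0.24, just inside the threshold, and at -0.08 after normexp.

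Itgb1 and Itgb5 differed by less than 1.5-fold. Itgb1, the partner of most alpha subunits named here, had levels of 0.47 with and 0.34 without choline, a difference of -0.13 ± 0.20 with probes at -0.17 and -0.08, and 0.15 with spike-in scaling. Itgb5, a vitronectin receptor subunit, was at 4.05 and 3.84 (-0.21 ± 0.20). The Itgb5 difference turned positive with spike-in scaling (0.06), after cyclic loess (0.02) and after quantile normalization (0.003). These differences are about the size of the software's error. Over the 7 measured beta subunits 2 were higher and 1 lower by 1.5-fold, counts too small to be told from the 14.8% and 14.1% of all genes. Their median of -0.13 turned positive after cyclic loess (0.02), quantile normalization (0.003) and spike-in scaling (0.15). Itgb6, an epithelial subunit, was well above background on neither array. The median of the 11 measured alpha subunits was 0.78, with 6 higher and 0 lower.

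Among integrin genes of leukocytes, Itgal, Itgam, Itgb2 and Itgb7 were measured, too few for a count to be set against the share of all genes. Itgb2, the subunit that all leukocyte-specific alpha chains of the Itgal and Itgam type pair with, was 2.42-fold lower without choline, at -4.08 with and -5.35 without (-1.27 ± 0.21, and -0.78 after normexp), from signals of 75.9 and 39.5. It was the only member at least 2-fold lower under the main scaling. Itgb7, of lymphocyte homing receptors, was at -0.24 ± 0.21. Of the alpha subunits of leukocytes, Itgad, Itgae and Itgax were not above background in either group. Itgal and Itgam were measured with probes of opposite sign: -0.71, -0.64 and 0.50 for Itgal, and -0.30, 0.07 and 0.57 for Itgam.

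The Itgam probe with the largest difference starts with a run of 20 bases of CA repeat, shown in capitals in its first 30 bases, because the next longest such run in any member probe is 8 bases.
Itgam probe, first 30 bases: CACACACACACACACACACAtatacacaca
It read 1962 with and 3675 without choline, whereas the other 2 Itgam probes read at most 25.2 on either array. Whether this probe reads Itgam transcripts was not tested. The gene's mean difference of 0.11 ± 0.22 rests on all 3. Leukocyte and platelet markers were measured for 10 of 16 genes, with 2 higher and 1 lower and a summed signal of 0.567 without and 0.489 with choline. The pan-leukocyte gene Ptprc was close to the limit, at -7.60 without and -7.34 with choline, where the dimmest probes above background lay at -8.60 and -8.23. Other markers of the list lay well above that limit. Among them were Cd14 at -2.08 without and -2.70 with choline, Cd3e at -2.90 and -2.61, Csf1r at -3.87 and -3.93, and Cd68 at -4.41 and -4.39. Lyz2, Tyrobp and the platelet gene Gp1ba could not be told from background in either group, while of the other platelet genes Pf4 was above it only without choline and Gp9 only with choline. These values stand beside those of Itga2b, Itgb3 and Itgb2, and their part in them was not tested.

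The name pattern also takes 4 genes that are not among the classical subunits. Itgb3bp, which encodes a centromere protein that also binds the tail of the Itgb3 subunit, was 1.93-fold higher, at -2.10 with and -1.15 without choline (0.95 ± 0.21), with probes at 0.58 and 1.32. Itgb1bp1, whose product binds the tail of the Itgb1 subunit and restrains its activation, was at -0.42 with and -1.04 without choline, 1.54-fold lower (-0.62 ± 0.20). Both probes of Itgb1bp1 were lower, by -0.49 and -0.76. Itgb1bp2, a muscle chaperone gene, was at -0.27 ± 0.22, and Itgb2l, a relative of Itgb2, at -0.09 ± 0.40. Without the 3 binding-protein genes, 14 of 32 measured members were higher and 1 was lower, against 14.8% and 14.1% of all measured genes.

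Genes around these receptors and this matrix were followed in lists of known partners. The counts of each list stand beside 14.8% of all measured genes called higher and 14.1% called lower. Ligands of integrins outside the basement membrane had a median of 1.73, and 15 of their 22 measured genes were called higher, 0 lower. The largest differences were in Edil3, an RGD protein that binds the Itgav receptors (-7.06 with and -2.88 without choline, 4.17 ± 0.25), Col1a1 (3.75 ± 0.20) and the matrix glycoprotein gene Tnc (3.30 ± 0.25). The main ligand of the Itga5 receptor, Fn1, was at 5.91 with and 5.93 without choline (0.02 ± 0.20), and vitronectin (Vtn) was not well above background in either group. Other basement membrane genes had a median of 0.67, with 10 of 18 called higher and 2 lower. Fbln2, which binds nidogen and laminin, was 5.38-fold higher (2.43 ± 0.20) and the endostatin-bearing collagen gene Col18a1 3.43-fold higher (1.78 ± 0.20), while the type IV collagen gene Col4a4 was 3.86-fold lower (-1.95 ± 0.20).

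Receptors of laminin other than integrins had a median of 0.51, with 10 of 23 called higher and 2 lower. In this list the sarcoglycan gene Sgcd (1.43 ± 0.21) and Utrn, the relative of dystrophin (1.37 ± 0.20), were highest. Dag1, the gene of the dystroglycan that binds laminin, perlecan and agrin, was at 0.93 with and 1.56 without choline (0.63 ± 0.20). Membrane partners of integrins were higher in 6 of 11 and lower in 1, among them Cd151, the tetraspanin that holds the laminin receptors (1.04 ± 0.20), Cav1 (1.83 ± 0.21) and Cd82 (0.90 ± 0.20).

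Adaptors and actin linkers inside the cell had a median of 0.32, with 11 of 33 called higher and 3 lower. Nedd9 (1.45 ± 0.20), a scaffold of focal adhesions, the actin crosslinker gene Actn1 (1.32 ± 0.20) and Tgfb1i1 (1.24 ± 0.21) differed most, followed by Vcl, the gene of vinculin (1.12 ± 0.20). The direct activators of integrins stayed within 1.5-fold: talin 1 (Tln1) was at 0.36 ± 0.20 and kindlin 2 (Fermt2) at 0.32 ± 0.20. Endothelial markers were higher in 1 and lower in 2 of 5 measured genes, with Cdh5 and Tie1 not well above background. Egfl7 was called higher (0.68 ± 0.20, at 0.37 with and 1.05 without choline), and Kdr (-0.66 ± 0.21) and Esam (-0.98 ± 0.21) lower. Epithelial markers were higher in 2 and lower in 0 of 8, with Cdh1 and Epcam not well above background. Grhl2 (0.98 ± 0.22) and Dsp (0.68 ± 0.21) were called higher, and Krt18 was at -0.45 with and -0.32 without choline. The counts of these marker lists are too small to be told from the 14.8% and 14.1% of all measured genes. Those lists were read because laminins and Itgb4 are also genes of vessels and epithelia.

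**Figure D4:**
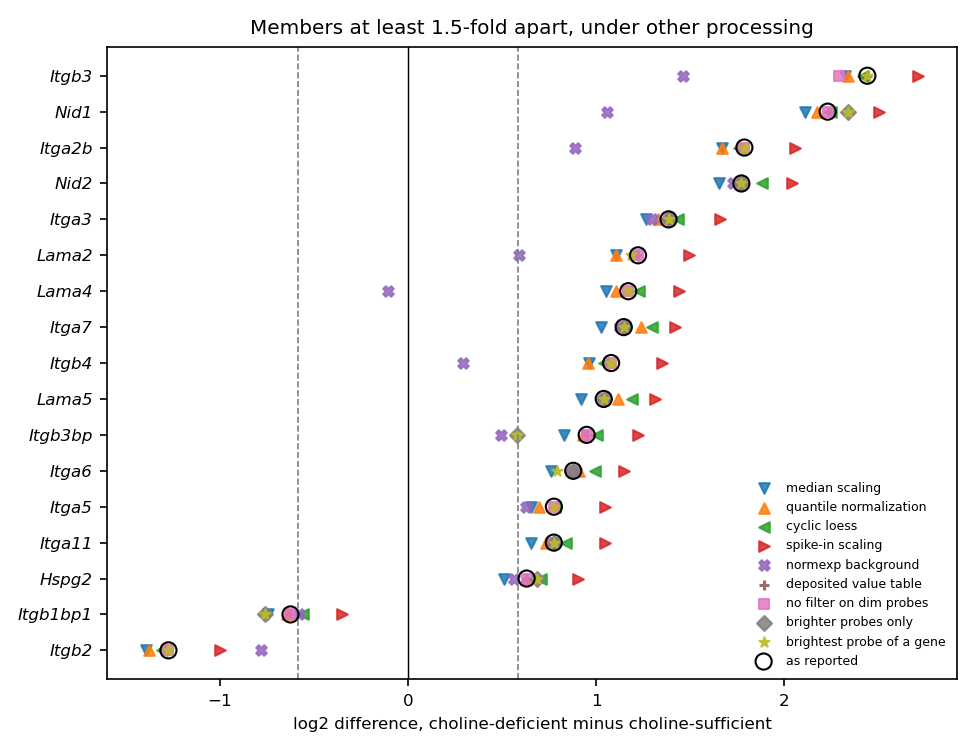
Log2 difference of the 17 members at least 1.5-fold apart under the reported processing (circle) and 9 alternatives (coloured marks), with dashed lines at 1.5-fold. Marks of dim genes such as Lama4 and Itgb4 move toward 0 after normexp, while those of Nid2, Itga3, Itga6 and Itga7 all lie to the right of the line.

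Under other processing of the same arrays 12 of the 17 called members kept their call each time. They were Nid1, Nid2, Itgb3, Itga2b, Itga3, Itga5, Itga6, Itga7, Itga11, Lama2, Lama5 and Itgb2. Nid2 ranged from 1.65 to 2.04, Nid1 from 1.06 to 2.50 and Itgb3 from 1.46 to 2.71. The calls of Hspg2, Itgb4, Itgb3bp, Itgb1bp1 and Lama4 were lost under at least 1 alternative. Of the 18 measured members inside 1.5-fold, 10 changed sign under at least 1 alternative, so no direction is given for them beyond the values above.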

How the data were processed

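Total RNA of 1 choline-deficient and 1 choline-sufficient group was labelled with Cy3 and read on 1 array each. Groups follow the labels. The deposited intensity values are processed signals, which per the file headers were background-subtracted and detrended within each array, with no step between arrays. The submitters' processing notes name version 12.1.1.1 of the scanner software, Agilent Feature Extraction. The deposited value table holds the ratio of that signal to an array constant, 1609 and 1280, close to the 75th percentiles, as found by comparing both. Probe coordinates refer to mm9, as the file headers state.

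Signals were taken to log2 and each array's 75th percentile, from its non-control spots, was subtracted, in R 4.3.3. Spots flagged as outliers, 92 and 86, were dropped. A probe was measured when well above background and not saturated on both arrays (26463 probes). A gene's value is the mean over its measured probes, and its error the mean of their propagated errors. Arrays have no read depth, and their number limits the precision. Shares of members at 1.5-fold stand beside those of all measured genes.

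Members, lists, motifs and subgroups were chosen with earlier results of these data known. Every member is accounted for in the counts, a few genes are not reported here by name, and from each other list up to 3 genes with the largest differences are named. Col4a1, Col4a2, Col4a5, Col4a6, Dag1, Vcl, Tln1, Fermt2, Fn1, Vtn, the cell type markers and genes above background on 1 array or neither were added after their values were seen. The 10 lists hold 186 genes, all found on the array by symbol or synonym. Alternatives used limma 3.58.1 (normexp with an offset of 50, quantile, cyclic loess), median scaling, scaling to the 5 brightest spike-in probes, the deposited table and other probe filters. Python 3.11.15 (numpy 2.4.6, pandas 2.3.3) gave the counts. The averaging of spots and probes and the fold calls were tested on simulated differences. The scalings, the bounds, the lists and the motif search were not.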

Additional observations from a re-analysis of the deposited data

How the results depend on the processing

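All 12 alternatives were run. No paired analysis was possible because each group has 1 array. Of the single-gene values of the 35 members, 244 stayed within the software's error of the reported value, 54 moved by more, and 1 called member was reversed: Lama4, at -0.11 after normexp. Besides, 10 of the 18 uncalled members changed sign under at least 1 alternative, such as Itgal, at 0.50 with the brightest probe. The count of higher members was between 10 (at 2-fold) and 22 (spike-in scaling), except 9 of the 19 members left with the brighter probes. The share of members called higher was above that of all genes each time, from 28.6% against 7.67% (2-fold) to 62.9% against 24.2% (spike-in scaling), with 31.4% against 8.42% after normexp. The count of lower members was 1 at 2-fold, with the brighter probes, after cyclic loess or normexp, with spike-in scaling and without the binding-protein genes, and 3 with median scaling, quantile normalization or the brightest probe.

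The median of members was 0.30 after normexp and 0.83 with spike-in scaling. By role, spike-in scaling gave 1.05 for alpha subunits, 0.15 for beta subunits, 0.77 for laminin chains and 1.47 for glycoproteins. Normexp gave 0.81 for glycoproteins, and no filter on dim probes gave 0.51 for alpha subunits. Over all genes, the numbers higher and lower were 1520 and 769 at 2-fold, 1314 and 1675 with the brighter probes, and 4800 and 1181 with spike-in scaling. There were 1668 higher genes after normexp and 4635 lower genes with no filter. A signal near background limits Lama4, Lamc3, Itgb2l and the members above background on 1 array.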

Other observations

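The chains of type IV collagen, the network that nidogens tie to laminin, did not share 1 direction. Col4a1 and Col4a2, which form the network of nearly all basement membranes, were 2.75-fold and 2.47-fold higher without choline (1.46 ± 0.20 and 1.30 ± 0.20), and Col4a5 was 1.67-fold higher. Col4a4 had levels of -2.41 with and -4.36 without choline, and its neighbour and partner Col4a3 was well above background only with choline. Col4a6 was within 1.5-fold (0.55 ± 0.20).

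Other genes of the basement membrane list were detected on 1 array only. Ntn4, a laminin-related netrin, was well above background only without choline, and Hmcn1, the gene of hemicentin, only with it. Egfl6 and Frem1 were well above background on neither array.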
